A study of Mus musculus with 7 samples.

Results

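Zfp281 is a C2H2 zinc finger transcription factor that binds G-rich DNA and works in pluripotent cells both as an activator and, with corepressors, as a repressor. Extraembryonic endoderm stem cells (XENs) are stem cells of the lineage that lines the yolk sac, and embryonic stem cells (ESCs) are pluripotent cells of the early embryo from which XENs can be derived in culture. A transcription factor commonly keeps part of its sites between cell types and takes up others, so sites held in XENs and not in ESCs are those at which a cell-type-restricted role could be looked for.

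The sites described here are the peaks of the XEN Zfp281 list that overlapped no ESC Zfp281 peak, called XEN-only sites below. They were selected on the deposited peak positions alone, over chromosomes 1 to 19 and X. There were 662 of them among 3449 XEN Zfp281 peaks, or 19.2% (95% Wilson interval 17.9 to 20.5%, counting error only). The other 2787 XEN peaks, called shared sites, overlapped at least 1 of 52266 ESC Zfp281 peaks. The absence of an ESC peak is what the selection used, and it is not a finding.

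Chromatin immunoprecipitation and sequencing (ChIP-seq) was done with 1 Zfp281 antibody in ESCs and XENs of the strain 129S1, both grown without feeder cells on gelatin. ESC medium held serum and leukemia inhibitory factor, and XENs received medium conditioned by mouse embryonic fibroblasts, with no genetic change or drug named for either. The 7 samples made 7 groups: both cell types had an input, a Zfp281 and a Suz12 sample, and XENs also an H3K27me3 sample. Suz12 is a core subunit of Polycomb repressive complex 2, and H3K27me3 is the histone mark that this complex writes. Each group was 1 library, so there was no replicate, no spread between replicates and no test of a difference between cell types. The labels do not say whether the cells came from 1 clone. Peak lists hold no expression values, so the cell types could not be checked against marker genes. Coordinates are in the build mm9, counted from 1, and neither genes nor sequences of that build were used here.

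An ESC peak can be missing because ESC signal stayed below the calling threshold, so the thresholds are given first. The deposited fold and p-value of each peak were solved for the number of ChIP tags at its summit and the control level there. The control level is in scaled tags, that is tags times a factor of each list, 1 for ESC and 0.815 for XEN Zfp281. The fold compares the scaled tags, not the tags, with that level. ESC Zfp281 peaks reached down to a -log10 p-value of 3.12, and XEN Zfp281 peaks only to 4.70. At the genome-wide control level of the ESC list, 3.01 tags, a peak of 10 tags and 2.74-fold enrichment was still listed. At that of the XEN list, 2.36 scaled tags, the lowest peak had 16 tags before scaling and 4.18-fold enrichment. By p-value the XEN list was thus the stricter, while the lowest -log10 q-values were close, at 1.31 in the ESC and 1.53 in the XEN list.

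The 3 XEN-only sites closest to an ESC peak were separated from it by 3, 7 and 10 bp. They lay at chr7:117791590-117791990 with 5.30-fold enrichment, at chr6:85327378-85328220 with 6.56-fold and at chr5:25130255-25130744 with 9.82-fold. On the other side of the line, the 3 shared sites with the smallest overlap met an ESC peak by 2, 8 and 10 bp. These were chr9:37376052-37376352 at 4.91-fold, chr11:3236999-3237298 at 4.12-fold and chr10:5858749-5859023 at 6.36-fold. Sites this close to the line were few, since 14 of the 662 lay within 200 bp of an ESC peak and 68 within 1 kb.

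XEN-only sites were somewhat weaker than shared sites of the same library, with wide overlap between both sets. Their authors' fold enrichment had a median of 5.75 (95% interval of the median 5.63 to 5.95, quartiles 4.91 and 7.43, range 1.41 to 34.2). Shared sites had a median of 6.41 (6.36 to 6.56, quartiles 5.15 and 8.40, range 1.99 to 33.7). The highest value of either set was thus nearly the same. At the summit, XEN-only sites had a median of 31 tags (30 to 32) and shared sites 33 (33 to 34). Median width was 370 bp (360 to 381) for XEN-only and 394 bp (388 to 401) for shared sites. Width enters the selection, because a wider peak can touch an ESC peak more easily, so the widths are a description. With the position of the XEN summit deciding instead, a setting added after the data were seen, 698 sites lay in no ESC peak. Their median fold was 5.78 (5.63 to 5.96) against 6.42 (6.36 to 6.56) for the rest, and their median width 373 bp (361 to 383) against 394 bp (388 to 401). These intervals cover the sampling of peaks within 1 library, and neighbouring peaks are not independent.

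**Figure D1:**
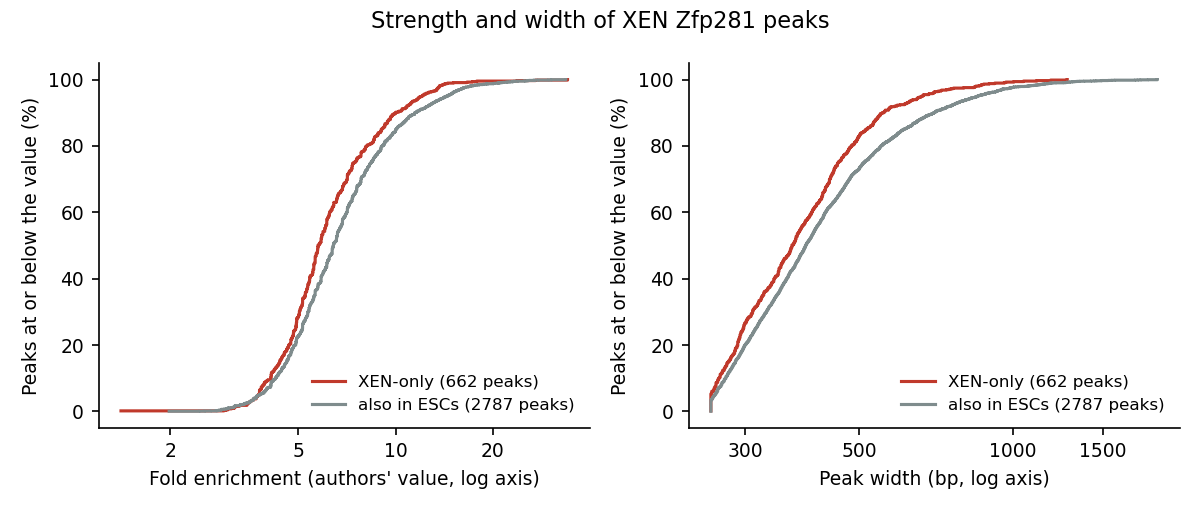
Cumulative share of XEN Zfp281 peaks (vertical axis, percent) at or below a fold enrichment (left) or a width in bp (right), both on log axes, for the 662 XEN-only and the 2787 shared peaks. The XEN-only curve lies to the left through most of both panels, with medians of 5.75 against 6.41-fold and of 370 against 394 bp.

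XEN-only sites were a smaller share of the strongest XEN peaks than of the weakest. Enrichment of at least 10-fold was found at 68 XEN-only sites, or 10.3% (8.18 to 12.8%), and at 433 shared sites, or 15.5% (14.2 to 16.9%). At 20-fold the counts were 3 and 35. In the strongest decile of XEN peaks by -log10 q-value, 11.3% were XEN-only (8.38 to 15.1%), against 24.1% (19.8 to 28.8%) in the weakest, and these intervals did not overlap. Between them the share did not move in even steps, at 21.4 to 23.8% in deciles 2 to 5 and 15.1 to 17.7% in deciles 6 to 9. By width, which the rule in part used, the widest 20% of peaks (538 bp or more) held 11.9% XEN-only sites (9.68 to 14.5%), and the 4 narrower groups 19.4 to 24.1%. When the summit decided, the strongest decile held 12.8% (9.64 to 16.7%) and the weakest 25.5% (21.2 to 30.4%), and the widest 20% of peaks held 13.2% (10.9 to 15.9%) against 25.2% of the narrowest. Of the 100 strongest XEN peaks, 7 were XEN-only (7.00%, 3.43 to 13.8%), and of the 20 strongest, 3 were.

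**Figure D2:**
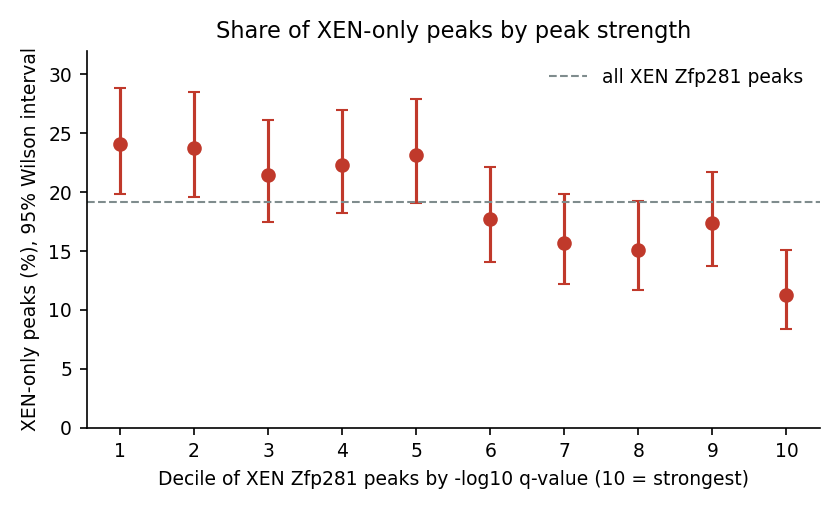
Share of XEN-only sites (percent, with 95% Wilson interval) in each decile of the XEN Zfp281 list by -log10 q-value, where decile 10 is the strongest; the dashed line is the share over all 3449 peaks, 19.2%. The 5 weaker deciles lie between 21.4 and 24.1%, and the strongest decile is the lowest at 11.3%.

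A few XEN-only sites were among the strongest of the whole XEN list. The first, chr17:21716087-21717134, ranked 2 among all XEN Zfp281 peaks, with 170 tags at its summit (exact Poisson interval 145 to 198) over a control level of 3.08 and 34.2-fold enrichment. The nearest ESC peak was 10994 bp away. The second, chr6:42394412-42395059, ranked 11 with 135 tags (113 to 160) and 27.2-fold enrichment, and it stood 71996 bp from an ESC peak. The third, chr6:31537086-31538053, ranked 17 with 124 tags (103 to 148) and 23.8-fold enrichment. These were the XEN-only sites above 20-fold, and each had a control level within 1 tag of the background of 2.36.

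Enrichment fell away quickly behind these 3. The site chr17:12861130-12862313 had more tags than the third, 139 (117 to 164), but its control level of 7.00 brought the fold to 14.3. It was also the second widest XEN-only site, at 1184 bp. On chromosome X, chrX:100846963-100847720 had 102 tags (83.2 to 124) and 17.3-fold enrichment, and a weaker XEN-only site of 31 tags followed at chrX:100848444-100848793. Chromosome 19 held the sixth and the seventh site, chr19:44973327-44974023 at 16.7-fold and chr19:38009540-38010385 at 14.0-fold. The first of these lay 3131 bp from an ESC Suz12 peak, the closest approach to Suz12 among the 20 strongest.

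Of the 20 strongest XEN-only sites, 5 lay on chromosome 6 and 3 on chromosome 2. Beyond the 2 already given, those on chromosome 6 were chr6:128052477-128053036 (77 tags, 17.9-fold), chr6:125948466-125949093 (88 tags, 12.1-fold) and chr6:115773969-115774528 (67 tags, 13.9-fold). The chromosome 2 sites were chr2:103329596-103330139, chr2:140585366-140585790 and chr2:172238020-172238651, at 15.1, 14.5 and 12.5-fold. The remaining sites of the 20 had 65 to 82 tags and 9.69 to 13.6-fold enrichment, apart from 1 with 13.7-fold that stood only 498 bp from an ESC peak, chr14:55613167-55613800. They were chr11:109788002-109788751, chr8:37240433-37241116, chr1:90993019-90993620, chr5:76222297-76222775, chr18:76360158-76360604 and chr1:38441292-38441745. None of the 20 overlapped a Suz12 peak of either cell type. Such overlap was also rare in the whole XEN list, at 5.13% for ESC Suz12 and 0.116% for XEN Suz12, a list of 4 peaks.

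Control levels at XEN-only and at shared sites had overlapping intervals in every measure taken here. The median control level was 3.08 tags in both sets (3.08 to 3.34 in each). A level over 3 times the background was found at 13 XEN-only sites, or 1.96% (1.15 to 3.33%), against 2.06% of all XEN Zfp281 peaks and 2.08% (1.61 to 2.68%) of shared sites. At the background itself lay 111 XEN-only sites, or 16.8% (14.1 to 19.8%), and 17.7% (16.3 to 19.2%) of shared sites. Far above these levels lay 1 site of each set. The shared one had 318 tags over a control level of 130 and 1.99-fold enrichment. The XEN-only one was chr2:98506881-98507249, with 346 tags, or 282 scaled tags, over a control level of 200. It had 1.41-fold enrichment, the lowest of all XEN-only sites. It lay 3937 bp from the single XEN H3K27me3 peak, chr2:98502677-98502943, whose own fold was 2.33. None of the 3449 XEN Zfp281 peaks overlapped that peak. With a single peak listed for the mark, little overlap was possible in any case.

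**Figure D3:**
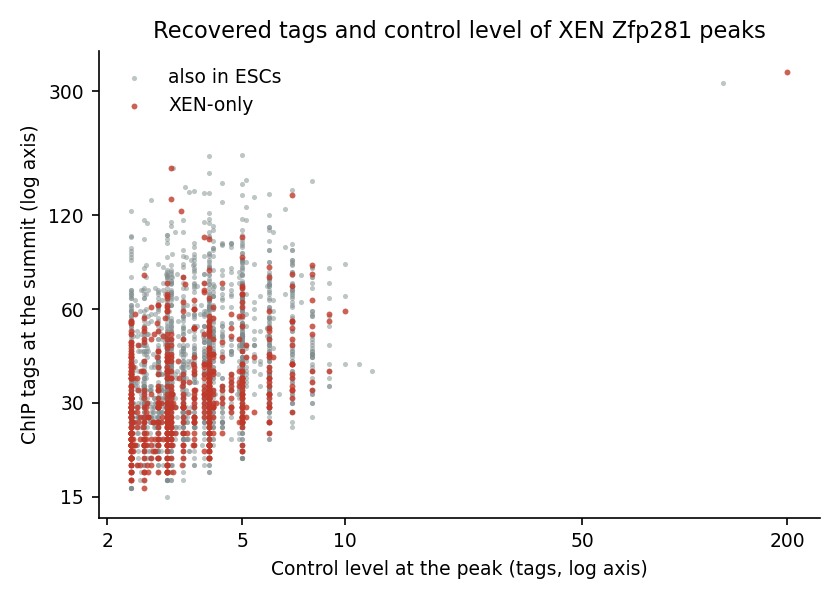
ChIP tags at the summit, before scaling, against the control level at the same peak, in scaled tags, for each XEN Zfp281 peak. Both axes are log axes, red points are XEN-only and grey points shared. Most points of both sets lie in 1 common cloud, with medians of 31 and 33 tags over a control level of 3.08, and the red point at the far right is the chromosome 2 site with 346 tags over 200.

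XEN-only sites lay closer to ESC sites than base positions in general. The gap to the nearest ESC Zfp281 peak had a median of 9032 bp, with quartiles of 2839 and 25190 bp. Within 10 kb of an ESC peak lay 350 XEN-only sites, or 52.9% (49.1 to 56.6%), whereas 23.9% of the base positions counted outside ESC peaks are that close to one. At 1 kb the figures were 10.3% (8.18 to 12.8%) of sites and 3.70% of positions, and at 100 kb 95.3% (93.4 to 96.7%) and 68.3%. Positions were counted on each chromosome from the first to the last peak of any list, including those to which no read can be aligned. The rule keeps XEN-only sites from touching an ESC peak but does not otherwise fix how near they lie. No other set of peaks was measured in this way, so the nearness is not shown to be particular to XEN-only sites.

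**Figure D4:**
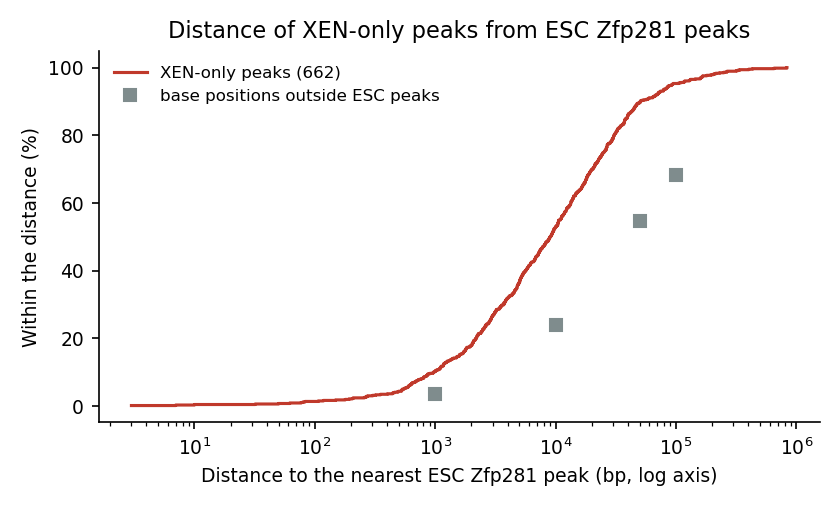
Cumulative share of the 662 XEN-only sites (red line, percent) by distance in bp to the nearest ESC Zfp281 peak on a log axis, with the share of base positions outside ESC peaks that lie within 1, 10, 50 and 100 kb of one (grey squares). The line lies above every square, as at 10 kb with 52.9% of sites against 23.9% of positions.

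The ESC peaks next to XEN-only sites were of middling strength. Their median fold in the ESC list was 5.48 (5.23 to 5.73), the same as the median of all ESC Zfp281 peaks, 5.48. The ESC peaks that shared sites overlapped had a median of 13.9 (13.4 to 14.4). They were also wider, with a median of 1134 bp (1099 to 1176) against 575 bp (540 to 601) next to XEN-only sites. A wide ESC peak is overlapped more easily, so the selection bears on this comparison and it is a description. Of the 68 XEN-only sites within 1 kb of an ESC peak, 15 had a nearest ESC peak that was also the one most overlapped by some shared site (22.1%, 13.8 to 33.3%). Beyond 1 kb this was so for 79 of 594 (13.3%, 10.8 to 16.3%), and these intervals overlap. Over all ESC Zfp281 peaks, 5.10% (4.92 to 5.29%) overlapped an XEN peak. That share counts each ESC peak once and takes any overlap. The shares before it count XEN-only sites, several of which can have the same nearest ESC peak. They also take only the ESC peak with the largest overlap for each shared site, so the figures are not on 1 measure.

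Distance from ESC sites went with little difference in strength. The median fold was 5.31 (4.92 to 5.95) for the 68 sites up to 1 kb away, 5.72 (5.53 to 5.96) for 282 sites at 1 to 10 kb, 5.95 (5.71 to 6.23) for 281 sites at 10 to 100 kb and 5.95 (5.15 to 7.29) for 31 sites farther off. All 4 intervals overlap. The most isolated site, singled out after its value was seen, was chr5:40029014-40029475, with 27 tags (17.8 to 39.3), 5.0-fold enrichment and no ESC Zfp281 peak within 836477 bp. An ESC Suz12 peak lay 4896 bp from it. The next most isolated, chr2:108463029-108463372, had 42 tags and stood 653721 bp from an ESC Zfp281 peak.

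Most XEN-only sites stood alone. With sites up to 10 kb apart joined, 624 stood alone, 32 formed 16 pairs and 6 formed 2 groups of 3. Another XEN-only site lay within 10 kb of 5.74% of them (4.21 to 7.78%), and a shared site within 10 kb of 12.4% (10.1 to 15.1%). Shared sites had another shared site that close in 23.6% of cases (22.1 to 25.2%), in a larger set, and an XEN-only site that close in 3.55% (2.93 to 4.31%). One group of 3 spanned 6957 bp at chr16:10344871-10351827, with 29, 27 and 78 tags and no shared XEN peak between. Of the pairs, the strongest was the chromosome X pair above, followed by chr6:127325892-127328253 with 61 and 37 tags and chr3:27627181-27628589 with 23 and 55 tags.

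Every chromosome from 1 to 19 and X carried XEN-only sites. Chromosomes 6 and 11 held 53 each, and chromosome 18 the fewest at 17. As a share of the XEN peaks of a chromosome, they ran from 15.0% on chromosome 7 (10.8 to 20.4%) to 24.8% on chromosome 6 (19.5 to 31.0%). These 2 extreme intervals overlap.

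The other group of 3, with a further site 17.6 kb before it, overlapped Suz12 peaks of the same cells. Of the 4 Suz12 peaks listed in XENs, 3 lay on chromosome 3 within 21.7 kb, and 4 XEN-only Zfp281 sites overlapped them. No shared site overlapped an XEN Suz12 peak (0 of 2787, which allows a share of up to 0.108%), so all XEN Zfp281 peaks that did so, 0.116% of the list, were XEN-only. With 4 Suz12 peaks in the list this rests on very few regions, and it is a description with no test.

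At chr3:133129795-133131070 the Zfp281 site began 18 bp after the Suz12 peak and ended 139 bp after it, and 1137 bp were common to both. It had 28 Zfp281 tags (18.6 to 40.5) and 7.09-fold enrichment, against 47 Suz12 tags (34.5 to 62.5) and 9.65-fold in the Suz12 list. Its width of 1276 bp was the greatest of all XEN-only sites. At chr3:133148666-133149237, 18 Zfp281 tags (10.7 to 28.4) gave 3.92-fold enrichment, against 53 Suz12 tags (39.7 to 69.3) and 10.8-fold. The sites chr3:133149547-133150658 and chr3:133150940-133151489, of 30 and 23 Zfp281 tags, together covered the place of 1 Suz12 peak of 1941 bp and 49 tags. The first of these began 9 bp before that Suz12 peak, and the second ended 7 bp before its end. In the order given, summits of the 4 Zfp281 sites lay 209, 229, 54 and 1329 bp from those of the Suz12 peaks they overlapped. Whether the signal at these places depends on the antibody used was not tested, so the overlap is not evidence of joint binding. These Zfp281 sites were wide but of no more than usual height, since the median XEN-only site had 31 tags and 370 bp. Control levels there were 2.36 to 3.60 tags under Zfp281 and 2.20 to 3.12 under Suz12. In ESCs neither antibody had a peak at these 4 sites, and ESC Zfp281 peaks stood 633 to 4344 bp away.

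**Figure D5:**
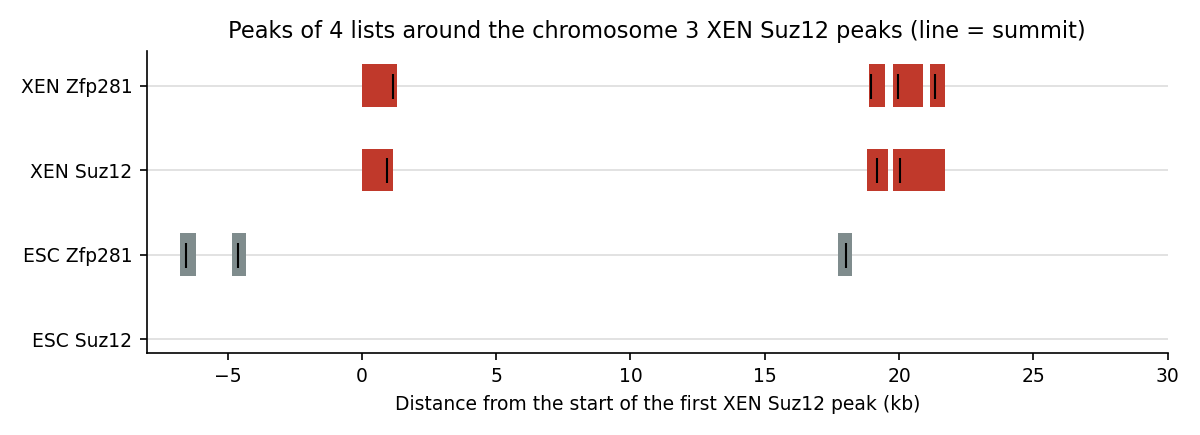
Peaks of 4 lists as bars along chromosome 3, by distance in kb from the start of the first XEN Suz12 peak, with a black line at each summit; red is XEN and grey is ESC. The 4 XEN-only Zfp281 sites lie on the 3 XEN Suz12 peaks, while the 3 ESC Zfp281 peaks lie beside them and ESC Suz12 has no peak in the window.

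Few XEN-only Zfp281 sites overlapped a Suz12 peak of either cell type, and for XENs only 4 Suz12 peaks were listed. An XEN Suz12 peak was overlapped by 4 of the 662, or 0.604% (0.235 to 1.54%), against 0.116% of all XEN Zfp281 peaks. A list of 4 peaks could give only a small share, whatever the sites. All of these overlaps lie in the chromosome 3 region above, and the interval does not allow for that. An ESC Suz12 peak was overlapped by 6 of the 662, or 0.906% (0.416 to 1.96%), against 5.13% of all XEN Zfp281 peaks and 6.14% (5.30 to 7.09%) of shared sites. Within 10 kb of an ESC Suz12 peak lay 9.97% (7.91 to 12.5%) of XEN-only and 15.5% (14.2 to 16.9%) of shared sites. The selection bears on these shares. An XEN site on an ESC Suz12 peak counts as shared where it also meets an ESC Zfp281 peak, so the shares are a description.

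Of these 6 sites, 2 had more tags than the median XEN-only site and 4 had fewer. The strongest was chr2:158491879-158492316, with 55 tags (41.4 to 71.6) and 9.16-fold enrichment, on a Suz12 peak of 374 bp and 24 tags whose summit was 76 bp away. Next came chr1:158133447-158134285, with 51 tags (38.0 to 67.1), at 1 end of a Suz12 peak of 3103 bp, with its summit 1458 bp away. The other 4 had 21 to 24 tags and 3.62 to 4.83-fold enrichment. They were chr10:87323642-87323952 on a Suz12 peak of 1510 bp, chr1:193009289-193009582 on one of 4835 bp, chr6:127097772-127098039 on one of 9670 bp and chr3:128923481-128923781 on one of 16460 bp. The last of these Suz12 peaks had 258 tags and 40.1-fold enrichment in ESCs, with its summit 3808 bp from the XEN-only Zfp281 site. Nearest ESC Zfp281 peaks of the 6 sites were 804 to 8850 bp away.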

How the data were processed

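Each immunoprecipitated sample had 1 deposited list of peaks in 10 columns with no header. The build mm9 and the tools Bowtie2 2.3.4, SAMtools 0.1.19 and FastQC 0.10.1 are named in the submitters' processing notes, without their roles. The peak caller, its control and its threshold are not given in the sources used here. The deposited values are the authors' fold enrichment (a ratio to the expected level), -log10 p-value, -log10 q-value and a score, which equalled 10 times the -log10 q-value without decimals. The input samples had no values analysed here.

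Python 3.11.15, pandas 2.3.3 and scipy 1.17.1 were used. Peaks overlapped if they shared 1 bp or more, and gaps count the bases between peaks. On other sequences than chromosomes 1 to 19 and X, 30 ESC Zfp281 peaks were left out. For each peak the number of tags was found for which pileup plus 1 over control plus 1 gave the deposited fold and a Poisson tail gave the deposited p-value. The scale of the pileup was 0.815 for XEN Zfp281, 1 for ESC Zfp281, 0.590 for ESC Suz12 and 0.636 for XEN Suz12. The largest error in -log10 p-value was 0.000242. The XEN Suz12 scale rests on 4 peaks. The method was tested on simulated data. Tag intervals are exact Poisson, shares have Wilson intervals and medians binomial order-statistic intervals, all at 95% and for counting error only. Reads carry no molecular identifiers.

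The sites, comparisons and alternatives were chosen with earlier results of these data known. The text names the 20 XEN-only sites with the highest -log10 q-value, those at Suz12 peaks, those nearest the overlap limit and the 5 clusters with the most members, pairs being ordered by their highest -log10 q-value. Genes, start sites, sequence elements and repeats were planned but not analysed here, because no mm9 genome or annotation was used.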

Additional observations from a re-analysis of the deposited data

How the results depend on the processing

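No paired analysis was possible because there were no replicates. Keeping only sites without an ESC Zfp281 peak within 10 kb left 312 XEN-only sites, and keeping only those at or above the median score of the XEN list left 279. By construction the latter are stronger and wider, with a median fold of 8.04 and a median width of 441 bp. A control level over 2 times the background, in place of 3, was found at 17.4% of XEN-only sites, against 19.3% of all XEN Zfp281 peaks. No other alternative moved the count of sites by over 1.5 times or the medians and the control share outside their intervals: a distance of 1 kb (594 sites), an overlap of 50% of the shorter peak (693), merging within 500 bp (651), the summit in place of the peak (698, chosen after seeing the data) and leaving out raised control levels (649). Shares near start sites, with a G-rich element or in repeats, and gene lists near the sites, were not run with any of their alternatives. With 1 library per group, how far the sites would recur in a second library was not measured.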
